A study of Mus musculus with 8 samples.

Results

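The genes described here encode repressors of the circadian clock. They are the 3 period genes Per1, Per2 and Per3, the cryptochrome genes Cry1 and Cry2, Ciart, and the paired bHLH repressor genes Bhlhe40 and Bhlhe41. The members were set by name, as the 8 genes among 20352 measured, and their 113 probe sets are those that carry 1 member symbol alone, out of 241576 on the array. Ciart is listed under its older symbol Gm129. The clock came to attention because clock genes, Per2 and Per3 among them, differed between mutant and wild-type cerebellum. The genotype differences of the members and of the other clock genes are therefore given as a description. Their calls in the fit over all genes are printed for completeness, and nothing is read from them. The correlation among arrays of the same genotype did not enter that choice.

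RNA came from whole cerebellum of mice 28 days old, with 1 Affymetrix Mouse Gene 1.0 ST array per animal. A group of 4 wild-type mice was compared with a group of 4 mice whose genotype label is Cic-L-null, titled Cicnull. Capicua (Cic) is a DNA-binding transcriptional repressor and a partner of ataxin-1, and the labels do not say how the allele was made. All 8 mice were of a mixed Swiss Webster (CD-1) background, and the labels give neither the time of day nor the lighting at collection.

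In the mammalian clock, the activators CLOCK or NPAS2 paired with BMAL1, the product of Arntl, bind E-box elements and switch on the period, cryptochrome, Ciart and Bhlhe genes. The products of those genes act back on the activators, which closes a loop that takes about a day, and clocks of this kind run in many brain regions, the cerebellum among them. A second loop runs through REV-ERB and ROR receptors, which repress or activate Arntl, Npas2, Clock and Cry1 through a shared DNA element. Genes driven by E-boxes and D-boxes therefore peak at other hours than Arntl and Npas2, and Cry1, which answers to both kinds of input, peaks later than the period genes.

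The promoter windows of 5 members are shown because they hold the E-box or D-box letters of clock-driven genes. Each runs 5′ to 3′ on the gene's own strand, from 250 bases before to 50 bases after a gene start, and is credited to RefSeq on GRCm38.p6. Capitals mark the E-box CACGTG, the related letters CACGTT and the D-box TTANGTAA, each on either strand.
Ciart, chr3:95882179-95882478, minus strand: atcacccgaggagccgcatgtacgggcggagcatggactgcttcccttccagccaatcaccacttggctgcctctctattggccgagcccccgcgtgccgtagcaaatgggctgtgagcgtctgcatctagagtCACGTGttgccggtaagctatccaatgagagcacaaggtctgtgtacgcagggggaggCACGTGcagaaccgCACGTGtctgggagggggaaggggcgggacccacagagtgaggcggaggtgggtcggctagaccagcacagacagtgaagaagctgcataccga
Cry1, chr10:85185005-85185304, minus strand: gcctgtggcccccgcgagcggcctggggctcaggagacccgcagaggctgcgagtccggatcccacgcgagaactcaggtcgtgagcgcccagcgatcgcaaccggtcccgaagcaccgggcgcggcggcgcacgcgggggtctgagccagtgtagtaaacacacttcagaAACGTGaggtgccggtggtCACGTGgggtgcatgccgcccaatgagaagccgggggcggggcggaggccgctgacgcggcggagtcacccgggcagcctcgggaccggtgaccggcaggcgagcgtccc
Per1, the first of 2 windows, chr11:69098699-69098998, plus strand: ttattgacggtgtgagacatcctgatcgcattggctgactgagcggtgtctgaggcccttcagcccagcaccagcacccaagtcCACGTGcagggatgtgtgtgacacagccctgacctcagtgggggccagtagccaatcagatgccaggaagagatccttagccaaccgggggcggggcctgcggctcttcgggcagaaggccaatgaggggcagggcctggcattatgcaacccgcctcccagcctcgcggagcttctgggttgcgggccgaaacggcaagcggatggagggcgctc
Bhlhe41, chr6:145865371-145865670, minus strand: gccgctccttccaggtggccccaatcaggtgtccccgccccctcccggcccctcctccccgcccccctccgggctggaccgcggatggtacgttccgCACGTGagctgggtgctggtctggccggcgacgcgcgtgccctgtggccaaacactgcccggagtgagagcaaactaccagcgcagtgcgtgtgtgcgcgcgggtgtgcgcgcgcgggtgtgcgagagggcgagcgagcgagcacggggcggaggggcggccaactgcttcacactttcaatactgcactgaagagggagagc
Per3, chr4:151044616-151044915, minus strand: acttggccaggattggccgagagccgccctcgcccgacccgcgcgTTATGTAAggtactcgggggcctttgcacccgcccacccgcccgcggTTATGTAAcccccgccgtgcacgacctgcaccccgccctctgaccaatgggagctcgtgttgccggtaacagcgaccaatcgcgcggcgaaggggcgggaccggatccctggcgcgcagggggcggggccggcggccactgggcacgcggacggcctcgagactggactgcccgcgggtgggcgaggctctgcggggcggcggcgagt

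Per2 and Bhlhe40 had no window in the promoter table and were not searched. The letters CACGTG stood in the windows of 4 of the 6 members found there, namely Per1, Cry1, Ciart and Bhlhe41. In the whole table, 7.15% of 32851 windows and 8.09% of 27025 genes held them. Ciart held them 3 times, starting 116, 58 and 44 bases before the gene start, and Cry1 held them once, 60 bases before it. The letters CACGTT were found in Cry1 and Cry2 and in 4.68% of all windows. Per3 held the D-box letters in a pair of places, starting 205 and 158 bases before the gene start, against 2.32% of all windows with any. The letters TGACG, the core of the cAMP response element, were found in Per1, Cry1 and Cry2 and in 20.8% of all windows. The full cAMP response element TGACGTCA (1.79% of all windows), a REV-ERB and ROR element (0.219%) and the Capicua octamers TGAATGAA (1.3%) and TCAATGAA (0.749%) were found in 0 of the 6. These matches describe letters in a short window and do not show binding.

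Tissue markers and Cic itself were checked first. Markers of granule cells and Purkinje cells lay high, with mean log2 values over their lists of 11.58 to 11.70 and 9.90 to 10.09, against 6.21, the 95th percentile of olfactory receptor genes, which are silent in most tissues. Of the 21 Cic probe sets, 17 separated the groups, all of them downward in the mutants. With limma at an adjusted p under 0.05, 28 of 20352 genes were called (0.138%), and the groups did not overlap for 1208 genes (5.94%). The lists of Bergmann glia and astrocyte markers (median -0.14), mature oligodendrocyte markers (median -0.13) and choroid plexus and ependymal markers (median -0.16) had lower medians in the mutants, where the genes of smallest p in each list were Fabp7 (-1.17) and Gdf10 (-0.33), Mobp (-0.30) and Cldn11 (-0.21), and Kl (-0.45) and Sostdc1 (-0.58). Of these only Fabp7 was called, and 3 of the 8 fits that left out 1 array, namely replicate 2 of either genotype or Cic-L-null replicate 4, ended its call (limma's adjusted p from 0.0261 to 0.0682). Their part in the clock values was not tested, and in whole tissue fewer cells of a type cannot be told apart from less RNA per cell. The lowest choroid plexus list mean was that of Cic-L-null replicate 3, at 7.46, where the other mutants lay from 7.98 to 8.52. Wild-type list means lay from 8.025 to 8.442. In Cic-L-null replicates 2 to 4, Kl read 7.073, 6.273 and 6.94, below the lowest wild-type value of 7.306. Sostdc1 read 7.412, 6.699 and 7.465 there, below the lowest wild-type value of 7.743. Cic-L-null replicate 1 lay among the wild-type arrays in both genes.

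Per2 had the largest difference among the clock repressors. Its protein is a core subunit of the repressor complex. Wild-type replicates 1 to 4 had log2 values of 7.52, 7.18, 7.55 and 7.29, and Cic-L-null replicates 1 to 4 had 7.87, 8.11, 8.34 and 8.21. Every mutant lay above every wild-type array. The means were 7.38 ± 0.18 and 8.13 ± 0.20 (SD, n = 4), a log2 difference of 0.75 (SE 0.11) or 1.68-fold.

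Per3, a period gene whose loss leaves behavioural rhythms largely intact, had the tightest wild-type values of the period genes. They were 7.77, 7.75, 7.77 and 7.86, against 8.25, 8.30, 8.57 and 8.43 in the mutants. The groups were again fully separate, and the nearest arrays of the groups lay further apart than the whole range of either group. With means of 7.79 ± 0.047 and 8.39 ± 0.14 (SD, n = 4), Per3 was higher by 0.60 (SE 0.075) or 1.52-fold.

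Per1, the period gene that responds fastest to light, neuronal activity and glucocorticoid, did not separate the genotypes. Its values were 8.59, 8.42, 8.56 and 8.84 in wild-type mice and 8.44, 8.68, 9.17 and 9.13 in the mutants, and the groups overlapped. Mutant replicates 3 and 4 were above all wild-type arrays, and mutant replicate 1 was below 3 of them. The difference was 0.26 (SE 0.16), with the mutant SD of 0.35 above the wild-type SD of 0.17.

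Cry1 was the member with the opposite sign. Cryptochrome 1 is a strong repressor of the activator pair. Its log2 values were 9.22, 9.11, 9.15 and 9.24 in wild-type and 8.92, 8.99, 9.01 and 8.91 in mutant cerebellum. Every mutant lay below every wild-type array, although the difference was small, at -0.22 (SE 0.057) or 1.17-fold. It came with the smallest pooled within-genotype spread of the 8 members, an SD of 0.061 in wild-type and 0.048 in mutant mice (n = 4). Its paralogue Cry2 read 9.70, 9.60, 9.52 and 9.56 in wild-type and 9.56, 9.73, 9.82 and 9.71 in mutant mice. These groups overlapped, since mutant replicate 1 lay among the wild-type arrays, and the difference was 0.11 (SE 0.071).

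Ciart encodes a repressor that binds the CLOCK and BMAL1 pair and is also called CHRONO. Wild-type values were 7.66, 7.17, 7.30 and 7.30, and mutant values were 7.57, 7.73, 8.13 and 7.86. Wild-type replicate 1 stood above mutant replicate 1, and all other mutants lay above all wild-type arrays. The difference was 0.47 (SE 0.13) or 1.38-fold. It was 0.43 without probe set 10373453, whose number lies apart from those of the other 3 Ciart probe sets and among those of Rpl41 and Pa2g4.

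Bhlhe41 (DEC2) and Bhlhe40 (DEC1) encode bHLH proteins that compete for E-boxes and are induced by the clock as well as by other signals. Bhlhe41 had values of 8.79, 8.52, 8.18 and 8.36 in wild-type and 8.84, 8.87, 9.25 and 8.89 in mutant mice. No array overlapped, but wild-type replicate 1 and mutant replicate 1 lay close together. Its difference was 0.50 (SE 0.13) or 1.41-fold. Bhlhe40 read 8.35, 8.05, 7.84 and 7.90 in wild-type and 8.03, 8.60, 8.38 and 8.25 in mutant mice, with overlap on both sides and a difference of 0.28 (SE 0.13).

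**Figure D1:**
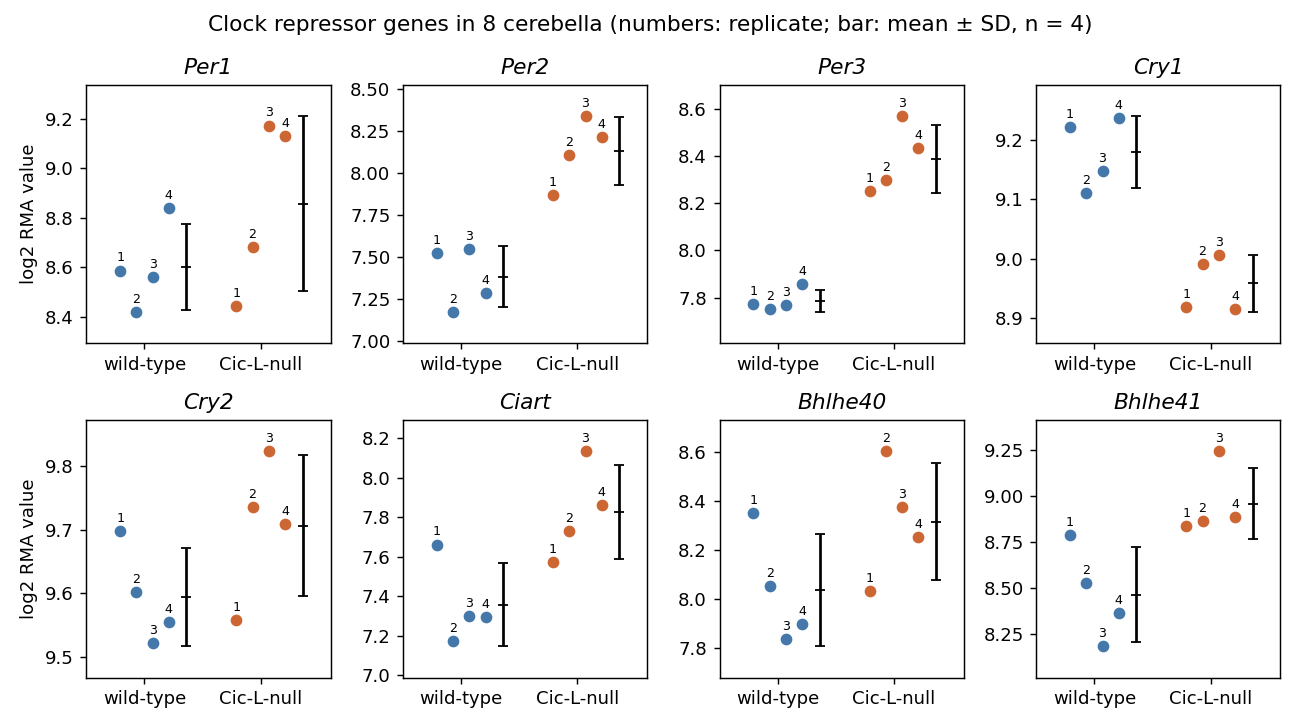
Log2 RMA values of the 8 clock repressor genes, 1 panel per gene with its own axis, for 4 wild-type arrays (blue) and 4 Cic-L-null arrays (orange) marked by replicate number. Bars give mean ± SD (n = 4). Per2, Per3 and Bhlhe41 separate upward and Cry1 downward, and the groups of the other 4 genes overlap.

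Over the 8 members, 7 differences were above 0 and 1 below, with a median of 0.37 against -0.0071 over all genes. The groups did not overlap for 4 of them, 3 higher and 1 lower, where 3.02% of all genes separated upward and 2.91% downward. The fit over all genes called Per2 and Per3, or 2 of 8, both higher, where 0.0884% of all genes were called higher, and the other 6 were not called. No member was called lower, where 0.0491% of all genes were. The Per2 call was lost in 7 of the 8 fits that left out 1 array and was kept without Cic-L-null replicate 1, over a range of adjusted p from 0.0457 to 0.168 with limma. The Per3 call was lost in 5 of the 8, when wild-type replicate 2, 3 or 4 or Cic-L-null replicate 2 or 4 was left out, with limma's adjusted p from 0.0310 to 0.0891.

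The array measures each gene at several probe sets, which read different stretches of its transcript, and the files do not say which. Of the 113 member probe sets, 36 separated the groups upward and 4 downward, where 2.39% and 1.91% of all probe sets did so. Probe sets of 1 gene are not independent. Of the 36, 17 were of Per2 and 13 of Per3, whose differences drew attention to the clock. In Per2, 20 of 21 probe sets had a difference above 0 and 17 separated the groups, with a median of 0.84 and a highest value of 1.47 at probe set 10356612. Probe set 10356625 of Per2 went the other way, at -0.29. A further 3 probe sets carry Per2 together with the symbol 9830107B12Rik, and with them the Per2 difference was 0.80. All 23 Per3 probe sets were above 0, from 0.11 to 1.06, and 13 of them separated the groups. Cry1 had 13 of 14 probe sets below 0 and 4 that separated, down to -0.64. Per1 had 26 of 27 above 0 with a median of 0.24, and 0 that separated. All 5 Bhlhe41 probe sets were above 0, from 0.38 to 0.64. The Ciart probe sets spread from -0.0030 to 0.91. Tested over all 241576 probe sets, 1 was called (0.000414%) and it was not one of the members'.

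**Figure D2:**
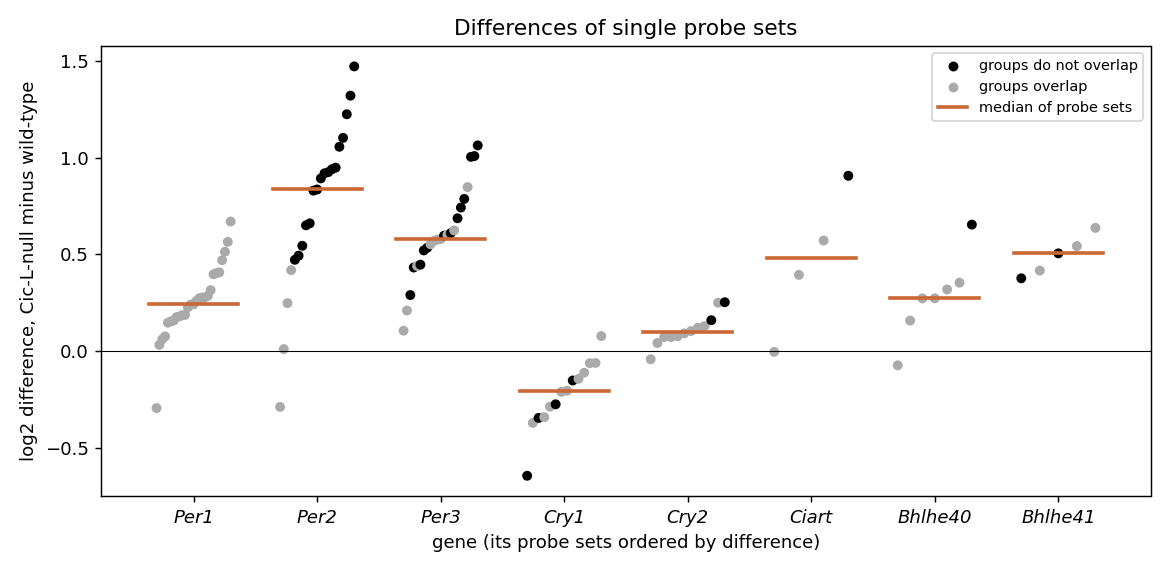
Log2 difference, Cic-L-null minus wild-type, of each of the 113 probe sets of the 8 genes, ordered within a gene. Black points are probe sets whose groups do not overlap, grey points those that overlap, and orange lines the medians. The Per2 and Per3 columns are mostly black. Most Cry1 points lie below 0, and most Per1 points lie above 0, with grey points alone in Per1.

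The activators of the loop lay on the other side. All 4 had differences below 0 with a median of -0.30. With limma, 0 were called and 3 had an unadjusted p under 0.05, as 9.26% of all genes did. Npas2, a partner of BMAL1 that can stand in for CLOCK, was lower by 0.40 on the log2 scale (SE 0.086) and Clock by 0.21 (SE 0.068), both without overlap. Arntl differed by -0.41 (SE 0.15) with overlap, because mutant replicate 1 at 9.38 lay among the wild-type values of 9.19 to 9.57. Arntl2 differed by -0.0051 (SE 0.086).

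Most receptors and output factors lay on the side of the period genes. All 4 measured REV-ERB and ROR genes were above 0. Nr1d1, which encodes REV-ERB alpha, was called, higher by 0.66 (SE 0.078), but in 6 of the 8 fits that left out 1 array it was not, and it stayed called when the array left out was wild-type replicate 1 or mutant replicate 3 (limma's adjusted p from 0.0264 to 0.0760). Its relative Nr1d2 differed by 0.37 (SE 0.13) with overlap, and Rora by 0.16 (SE 0.054). Among the D-box factors, Dbp was called, higher by 0.64 (SE 0.090). That call was lost in 7 of the 8 such fits and kept without Cic-L-null replicate 3 (limma's adjusted p from 0.0310 to 0.0995). Tef differed by 0.34 (SE 0.066) and Hlf by 0.060 (SE 0.056). Nfil3, which represses through the same D-box, differed by -0.16 (SE 0.094).

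**Figure D3:**
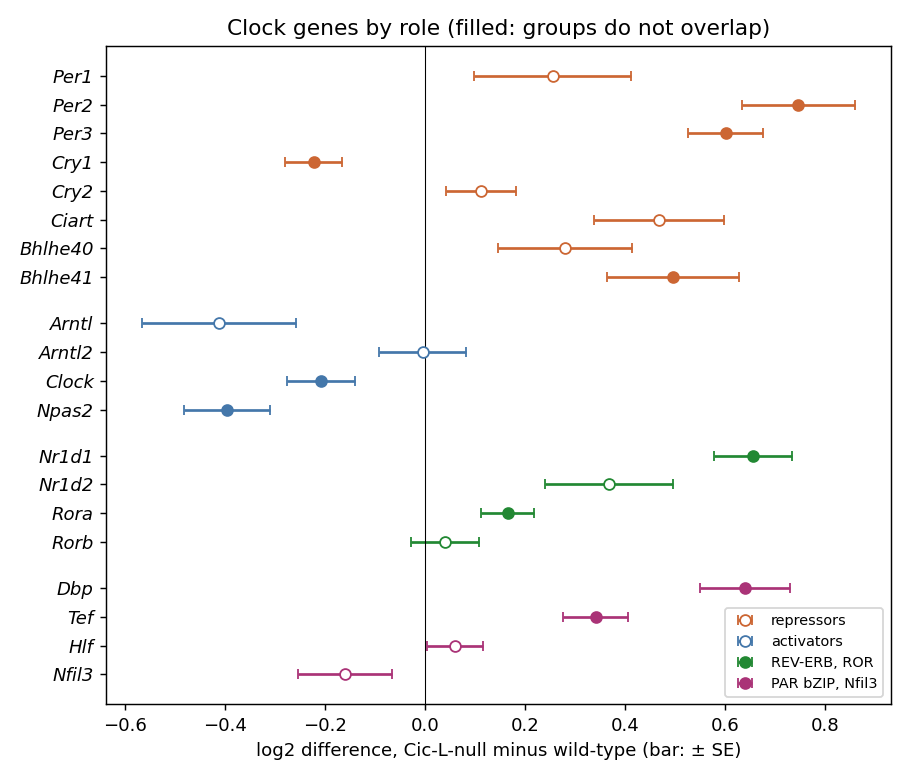
Log2 difference, Cic-L-null minus wild-type, with ± SE bars for 20 clock genes grouped by role, filled where the groups do not overlap. Cry1 is the 1 repressor left of 0, beside Arntl, Clock and Npas2 among the activators, and the REV-ERB, ROR, Dbp and Tef values lie right of 0.

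Genes for enzymes and partners of the clock proteins had small differences, and 4 of them separated the groups. Of 18 measured kinases, ligases and partners, 10 were above 0 and 8 below, with a median of 0.023. The groups did not overlap for 4, all higher, where 3.02% of all genes separated upward. With limma, 0 were called and 5 had an unadjusted p under 0.05, as 9.26% of all genes did. Sfpq, a partner of the period complex, differed by 0.26 (SE 0.067) and the deubiquitinase gene Usp2, a clock output, by 0.19 (SE 0.054). The other separating genes, named after their values were seen, were Cipc, a CLOCK-interacting repressor, at 0.16 (SE 0.053) and the casein kinase gene Csnk1e at 0.15 (SE 0.052). Other rhythmic outputs had 6 of 15 above 0, a median of -0.015, 0 called by limma and 2 with an unadjusted p under 0.05, with the glucocorticoid target Fkbp5 at 0.34 (SE 0.12) and Bcl6 at 0.26 (SE 0.12). Activity and CREB response genes had 6 of 12 above 0, a median of -0.016, 0 called by limma and 2 with an unadjusted p under 0.05, where Arc differed by -0.26 (SE 0.075) and Egr1 by -0.18 (SE 0.077).

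Deviations of the clock repressors from their genotype means, pooled over both genotypes, were correlated above 0 in all 28 pairs. No pair passed the adjusted test. Each array was expressed as its deviation from the mean of its own genotype, which removes the difference between the groups. Pearson's correlation of these deviations over the 8 arrays had a median of 0.57 over the pairs of members and a range of 0.068 to 0.93. Over all pairs of the 20352 genes, 50.2% were above 0 and the median was 0.0020. Spearman's rho was also above 0 for 28 pairs. Tested pair by pair with an exact permutation of arrays within genotype, two-sided, 5 pairs had an unadjusted p under 0.05 with r and 6 with rho, and 0 of 28 passed after Benjamini-Hochberg adjustment with either. With genes summarised by their median probe set, 24 pairs were above 0 and the median r was 0.36. The 576 arrangements allow no p below 0.00174. Values given as within genotypes are these pooled ones, and they need not hold in each genotype. With 4 arrays a group, the genotypes were not correlated apart. In wild-type replicate 4, Per1 (0.237), Per3 (0.068) and Cry1 (0.058) lay above their wild-type means. The other members lay below theirs there, from -0.039 in Cry2 to -0.137 in Bhlhe40.

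The closest pair was Per1 and Per3, with r = 0.93 (exact permutation p = 0.0104, adjusted p = 0.185) and rho = 0.95 (exact permutation p = 0.0122, adjusted p = 0.0851). The 2 arrays farthest from the Per1 median were Cic-L-null replicates 3 and 4, and without them r was 0.98. Cry2 followed Ciart (r = 0.84), Bhlhe41 (r = 0.83) and Bhlhe40 (r = 0.82), and Per2 followed Ciart (r = 0.83). Their rho values, in the same order, were 0.62, 0.88, 0.93 and 0.90, and the exact permutation p was 0.0278, 0.0156, 0.0330 and 0.0260 for r and 0.167, 0.0104, 0.00694 and 0.0104 for rho. None passed the adjustment, where the lowest adjusted p was 0.185 for r and 0.0851 for rho with the exact permutation test. The r values were 0.76, 0.68, 0.92 and 0.66 once each pair left out the 2 arrays farthest from the first gene's median. Per2 and Per3, which had the largest differences between the genotypes, had r = 0.62 within genotypes (exact permutation p = 0.142, adjusted p = 0.340, rho = 0.62), and 0.33 without wild-type replicate 2 and Cic-L-null replicate 3. Bhlhe40 was barely tied to Per1 (r = 0.093) and Per3 (r = 0.068). Cry1, which differed in sign between the genotypes, was correlated above 0 with all 7 other members within them, from 0.41 with Per2 to 0.60 with Ciart. Once each pair left out its 2 farthest arrays, 25 of the 28 pairs were above 0. Those that turned were Per2 and Cry1 (-0.23), Per3 and Bhlhe41 (-0.21), and Per1 and Bhlhe41 (-0.16).

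A pair of mutant animals stood at the ends of these values. Cic-L-null replicate 3 was the highest of the 4 mutants in 7 of the 8 members, where this held for 24.5% of all genes. Cic-L-null replicate 1 was the lowest mutant in 7 of the 8, where this held for 23.9% of all genes. The number of pairs above 0 was 25 without Cic-L-null replicate 3 and 25 without Cic-L-null replicate 1, with medians of 0.40 and 0.37, and 28 without any other array. Replicate 3 was the 1 mutant with low Y-linked signal (against 2 of the 4 wild-type arrays) and had the low choroid plexus values given above. Xist read 10.55 in this array, 10.55 and 10.6 in wild-type replicates 2 and 3, and 5.175 to 5.456 in the others. Low Y-linked signal with high Xist is the pattern of female mice, so the groups differed in their balance of the sexes. With Y-linked genes removed as well as the genotype, 28 pairs were above 0 with a median of 0.60, and the part of choroid plexus tissue was not tested. Among wild-type mice, replicate 1 was the highest in Cry2, Ciart, Bhlhe40 and Bhlhe41, and its label alone names a Trizol and RNeasy extraction. It was the highest wild-type array in 33.8% of all genes, and without it the differences of those 4 genes were 0.15, 0.57, 0.38 and 0.60.

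**Figure D4:**
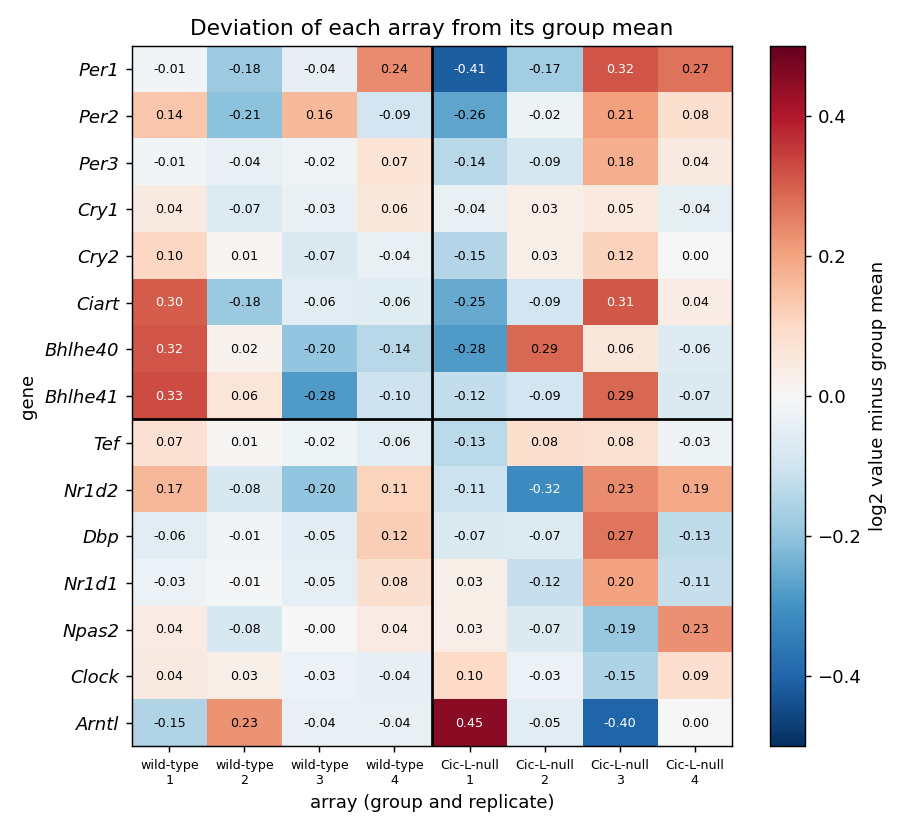
Deviation of each array from its genotype's mean (log2 units, colour scale from -0.5 to 0.5) for the 8 repressors, above the line, and 7 other clock genes, with wild-type arrays left and Cic-L-null arrays right. Cic-L-null replicate 1 is blue in most repressors and dark red in Arntl (0.45), and Cic-L-null replicate 3 shows the reverse (Arntl at -0.40).

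Arntl varied against the repressors. Its deviations were correlated below 0 with all 8 members, from -0.50 with Bhlhe41 to -0.87 with Per2, with a median of -0.78. Clock was also below 0 with all 8 (median -0.50), whereas Tef, Nr1d2 and Dbp were above 0 with all 8, with medians of 0.62, 0.56 and 0.44. These values pool the genotypes. In wild-type replicates 1 to 4, Clock deviated by 0.043, 0.028, -0.031 and -0.04, with the same signs as Cry2, Bhlhe40 and Bhlhe41. The other members did not match Clock in sign in all of these arrays. Leaving out, in each pair, the 2 arrays farthest from the member's median left Arntl below 0 and Tef above 0 with all 8. Clock was then below 0 with 7, Nr1d2 above 0 with 7 and Dbp with 5. Dbp turned with Per2 (-0.76), Cry2 (-0.59) and Ciart (-0.55). For Per2 and Arntl the exact permutation p was 0.0139 (adjusted p = 0.367), rho was -0.74 (exact permutation p = 0.0799), and r was -0.76 without wild-type replicate 2 and Cic-L-null replicate 3. The largest value was that of Cry2 and Tef, at r = 0.91 (exact permutation p = 0.0104, adjusted p = 0.367) and rho = 0.86 (exact permutation p = 0.0226), with 0.94 without wild-type replicate 3 and Cic-L-null replicate 3. Of these 96 pairs of a member and a companion gene, 6 had an unadjusted p under 0.05 with r and 3 with rho, 0 passed after adjustment, and 64 kept their sign without the 2 farthest arrays. Genes that respond to glucocorticoid had no common direction. Fkbp5 was below 0 with all 8 members (median -0.15) and Sgk1 with 7 (median -0.36), Tsc22d3 was above 0 with 7 (median 0.16), and the activity gene Fos was above 0 with 3 and below 0 with 5. Npas2 was below 0 with 7 members (median -0.24), Nr1d1 above 0 with 7 (median 0.34) and Nfil3 above 0 with 7 (median 0.17). Without the 2 farthest arrays these last 3 were below 0 with 3, above 0 with 4 and above 0 with 4, and Fkbp5 was below 0 with 4, Sgk1 with 5 and Tsc22d3 above 0 with 3.

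**Figure D5:**
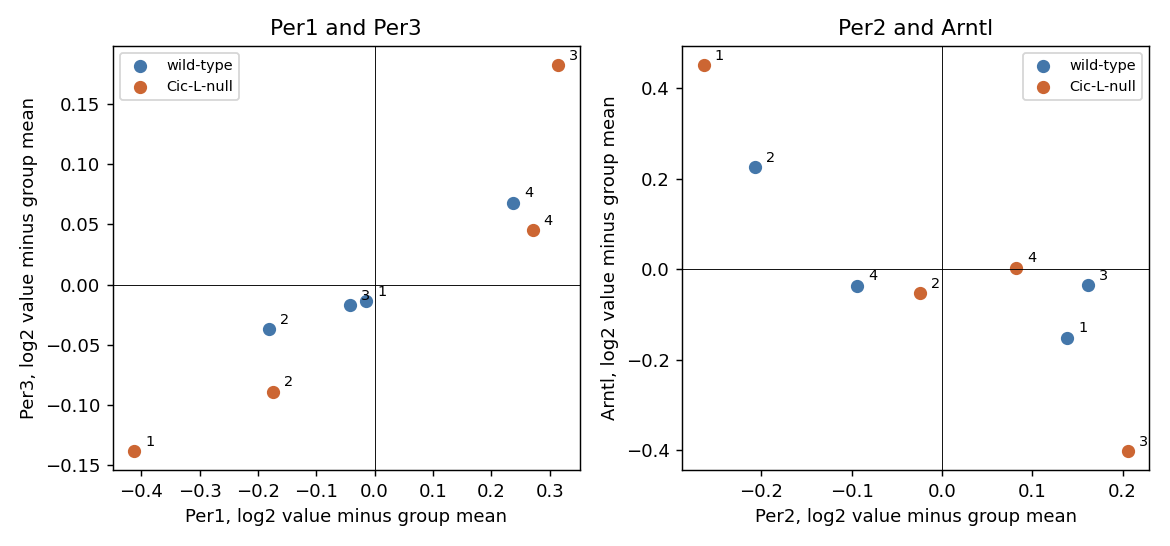
Deviations from the genotype mean (log2 units) of Per3 against Per1, left, and of Arntl against Per2, right, 1 point per array with its replicate number, blue for wild-type and orange for Cic-L-null. Per1 and Per3 run together (r = 0.93), and Per2 and Arntl run against each other (r = -0.87), with Cic-L-null replicates 1 and 3 at the ends of both.

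The size of this variation and the agreement of probe sets differed between members. The within-genotype SD was 0.28 for Per1, 0.23 for Bhlhe40 and Bhlhe41, 0.22 for Ciart and 0.19 for Per2, which placed them at the 97.3rd, 94.9th, 94.4th, 94.1st and 88.2nd percentiles of all genes, against 0.11 for the median gene. Per3 (0.11), Cry2 (0.095) and Cry1 (0.055) lay at the 46.4th, 36.7th and 7.61st percentiles. Each probe set was also set against the mean of its gene's others, over the deviations of 8 arrays. The median correlation was 0.84 in Bhlhe40, 0.82 in Per1 and Bhlhe41, 0.61 in Cry2, Ciart and Per2, 0.31 in Per3 and 0.15 in Cry1, against 0.25 for the median of 15561 genes with at least 4 probe sets. The mouse-to-mouse variation of Cry1 was thus no better shared among its probe sets than that of a typical gene.

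Ranked by the correlation of deviations over the 8 arrays among 5740 brighter and more variable genes, the genes most like Per3 were Spata2L (r = 0.94), Sowahb (r = 0.93) and Per1 (r = 0.93). Mccc1os (r = 0.98), Zscan21 (r = 0.97) and Kat2b-ps (r = 0.92) were nearest to Per1, and Pcdhb21 (r = 0.99), Tmem61 (r = 0.93) and Tesk1 (r = 0.92) to Per2. With 8 arrays and 5740 genes such values arise easily, and no test was made.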

How the data were processed

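The deposited table holds log2 values per probe set, made by the authors, per the submitters' processing notes, with RMA in Affymetrix Power Tools. For software versions and genome build: not given in the sources used here. Probe sets with 1 symbol in the platform annotation entered a gene, symbols were updated through the GRCm38.p6 gene table, and a gene value is the mean of its probe sets. No probe set coordinates are used. Genotypes were compared over all 20352 genes by limma 3.58.1 (R 4.3.3; lmFit, eBayes, group as the only term) with Benjamini-Hochberg adjustment, called at an adjusted p under 0.05, and the fit was tested on simulated data. Arrays give no read depth, and their number limits the precision. The members, lists and rules were chosen with earlier results of these data known. The rule for names took the 8 members, Cic, 12 companion genes, called members of each pathway list with the 2 others of smallest p, the 3 genes most like each period gene, and 2 genes of each marker list whose median moved by over 0.1. Rpl41 and Pa2g4 were named for their probe set numbers, outside that rule. Genes ranked for likeness were above the 95th percentile of 979 olfactory receptor genes and at least as variable as the median gene. Alternatives covered the probe set summary, scaling, dim genes, variance model, array weights, replicate block, Y-linked covariate and each array left out. The comparison of proteins within families was not made here.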

Additional observations from a re-analysis of the deposited data

Results flagged for a closer look

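Among 42 groups of 4 arrays looked at (8 members, 12 companion genes and Cic in each genotype), 3 held an array set far from the other 3, where chance gives about 1 in 20. All 3 were Cic-L-null replicate 3. Its Bhlhe41 value was 9.25, where the other mutants lay from 8.84 to 8.89. Its Dbp value was 9.86 against 9.46 to 9.52, and its Sgk1 value was 9.12 against 9.35 to 9.38. Without this array the Bhlhe41 difference was 0.40, and it was not called with or without it.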

How the results depend on the processing

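All 8 member differences kept their sign in the 18 alternatives run for each. Dropping dim genes, the trended and robust variance, the replicate block and the unmoderated test leave a difference unchanged, so those could not alter a sign. Per2 ranged from 0.68 to 0.83 and was called in 5 of 18, Per3 ranged from 0.54 to 0.65 and was called in 10 of 18, and the other 6 members were called in none. The 2 alternatives chosen after seeing the data are the Ciart and Per2 probe set choices given above. The count of genes called, 28, became 2 (0 members) with the median of the probe sets, 69 among genes above the dim limit, 130 with a trended and robust variance, 54 with array weights, 18 (1 member) with a Y-linked covariate, and 0 (0 members) with the replicate block or with unmoderated tests. Members called became 1 with brighter probe sets or a second quantile normalisation. With 1 array left out, genes called ranged from 0 to 37 and members called from 0 to 2. The cause of these moves was not tested. Member pairs above 0 numbered 24 to 28 over all alternatives, lowest with the median of the probe sets (median r 0.36). With each one tested, 0 pairs passed the adjusted threshold of the exact permutation test, and 2 to 6 had an unadjusted p under 0.05. Fewer arrangements remain with 1 array left out, so a pass was harder there and its absence says little. Members without overlap numbered 3 to 6. With the replicate block, adjusted p with limma was 0.0824 for Per2 and 0.0573 for Per3. Deviations of same-numbered arrays correlated at 0.22, 0.00033, 0.21 and 0.026, and 2 of 4 wild-type arrays correlated best with their own number. These few values cannot decide whether the numbers pair the animals, and the main fit took them as unpaired.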
